A study of Mus musculus with 6 samples.

Results

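Oxidative phosphorylation was compared in choroid endothelial cells (ECs) of mice at postnatal day 5 (P5) and postnatal day 30 (P30), over 90 of the 22026 gene symbols listed for each sample. The 90 were chosen by name alone: every symbol beginning with Nduf, Uqcr, Cox4 to Cox8 or Atp5, and Sdha, Sdhb, Sdhc and Sdhd. They comprised 42 symbols of complex I, 4 of complex II, 8 of complex III, 19 of complex IV and 17 of complex V. Of these, 83 named subunits and 7 named other proteins, namely the complex I assembly factors Ndufaf1, Ndufaf2, Ndufaf3 and Ndufaf4, and Cox4nb, Atp5s and Atp5sl. The 13 subunits encoded by mitochondrial DNA were not analysed here.

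In the inner mitochondrial membrane, complexes I and II take electrons from NADH and succinate, complex III passes them to cytochrome c, and complex IV hands them to oxygen. Complexes I, III and IV pump protons as they do so, and complex V, the ATP synthase, uses the return of the protons to make ATP. Most subunits are nuclear genes that every respiring cell transcribes, several have tissue-specific isoforms, and ECs are known for drawing much of their ATP from glycolysis.

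The study compared choroid ECs before and after the mouse eye matures. ECs of 129/B6 mice were labelled in the living animal by an injected antibody to VE-Cadherin and sorted by flow cytometry from RPE/choroid, the retinal pigment epithelium with the vessel layer behind it. Each age had 3 independent isolations, each a pool of 7 animals, so no value belongs to 1 mouse, and at P30 the animals were of both sexes. Expression was deposited as FPKM (sequenced fragments per unit of transcript length and of library size), so levels of different genes can be set side by side. No read counts came with them, and sequencing depth and counting error are unknown.

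Across all symbols, FPKM summed to between 1432700 and 1734639 per isolation, and between 33.4% and 37.3% of symbols were listed at 0. No 2 isolations held identical values. The 12 endothelial markers examined had sums of 24500 to 26850 FPKM in the P5 isolations and 34730 to 42890 in the P30 isolations. They did not move together: 7 were higher at P30 and 1 lower at an adjusted p under 0.05 in limma. The lower 1 was Cdh5, the gene of VE-Cadherin, with means of 2971 FPKM at P5 and 1885 at P30. Plvap went from a mean of 4692 to 11590 and Emcn from 3002 to 5523. Markers of other cells were also present and mostly higher at P30: sums ran from 498 to 1768 FPKM at P5 and 1959 to 6715 at P30 for 8 pericyte markers, from 656 to 702 and 828 to 1696 for 7 smooth muscle markers, and from 742 to 1212 and 1821 to 4559 for 8 fibroblast markers. The 9 leukocyte markers did not share this, with sums of 541 to 803 FPKM at P5 and 319 to 812 at P30. Of the 7 leukocyte markers that could be tested, 3 fell and none rose. Among 10 proliferation genes, 9 fell, with a median log2 difference of -5.10. In these pools, fewer cells of a type and less RNA per cell cannot be told apart.

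The members were among the most abundant transcripts of the sorted cells. Their median level lay at percentile 91.9 of all listed symbols, 64 of the 90 exceeded 100 FPKM and 10 exceeded 500 FPKM, as a mean of the 6 isolations. The highest was Atp5b, the catalytic beta subunit of the ATP synthase, at a mean of 1289 FPKM, followed by Cox4i1 at 1031, Atp5a1 at 942 and Atp5g3 at 757. Cox6a2, Cox7b2 and Cox8c, isoforms known from striated muscle or testis, were listed at 0 in every isolation. Levels of subunits of one complex were far from equal. Complex I subunits ranged from 23.4 FPKM for Ndufab1 to 489 for Ndufa8, with a median of 185, and complex V subunits from 51.7 for Atp5g1 to 1289 for Atp5b, with a median of 276. Complex II was the most even, from 238 for Sdhd to 321 for Sdha. Ndufab1 and Atp5g1 had near-identical copies of their coding sequence elsewhere in the genome, while Ndufa8, Atp5b and complex II had none. The median level was 119 FPKM over members with a copy and 207 over those without. The part of the copies in these levels was not tested.

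Differences between ages were tested with limma on log2(FPKM + 1) over the 12481 genes with a mean of at least 5 FPKM in at least 1 age. Of the 90 members 86 were tested. The other 4 were the 3 symbols listed at 0 and Cox7a1, which lay between 0 and 8.74 FPKM. At the study's limits, an adjusted p under 0.01 with at least a 2-fold difference, Cox8b alone was higher at P30 and no member was higher at P5. Of all genes tested, 5.89% were called higher at P30 and 5.82% higher at P5 by the same limits. At an adjusted p under 0.05 with no limit on fold, 7 members rose (8.14% of those tested, against 16.1% of all genes) and 12 fell (14.0%, against 22.4% of all genes). The split of rises to falls was 4 to 27 with FPKM rescaled to an equal sum per isolation, 10 to 9 when scaled by the median ratio and 7 to 7 with limma run without its trend. Of all genes, 13.2% rose and 36.2% fell at an equal sum, 19.2% and 18.6% by the median ratio, and 14.9% and 20.6% without the trend. "Rose" and "fell" below refer to this second limit. Every P30 isolation lay above every P5 isolation for 9 members (10.5%, against 22.0% of all genes) and below every P5 isolation for 21 members (24.4%, against 33.0%). In each of these counts the members had a smaller share than the background. For rises this turned when P30 replicate 3 was left out: 19 members then rose (22.1%, against 18.0% of all genes).

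The median log2 difference, P30 minus P5, was -0.03 over the 86 members and -0.10 over all genes tested. By complex it was -0.05 for complex I, -0.17 for complex II, -0.002 for complex III, 0.10 for complex IV and 0.06 for complex V. The signs of these small medians were not firm: over all members it was 0.05 when scaled by the median ratio and 0.056 without P30 replicate 3, for complex IV -0.06 without P30 replicate 1, and for complex V -0.19 and -0.21 without P30 replicates 1 and 2 and 0.28 without P30 replicate 3. By share of tested members, complex I had 7.14% that rose and 11.9% that fell, complex IV 26.7% and 6.67%, and complex V 0% and 23.5%, to be read against 16.1% and 22.4% of all genes. Cox8b, Ndufa4l2, Cox4i2, Atp5h and Uqcr11 differed by more than 1 on the log2 scale, all upwards, and the other tested members by less, from -0.98 for Atp5e to 0.95 for Cox5b.

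Of the 19 members past the second limit, Atp5e, Cox7a2l, Cox8b, Ndufa8, Ndufs4 and Ndufs7 also passed it in all 15 other fits. The other 13 kept their direction in each of these but lost the call in at least 1, with a highest adjusted p from 0.0520 for Ndufb5 to 0.157 for Atp5g3. Leaving out P5 replicate 2 or P5 replicate 3 ended 12 calls each and leaving out P5 replicate 1 ended 8. The share of all genes called also dropped, from 38.5% to 21.3%, 22.6% and 26.4% without P5 replicates 2, 3 and 1. Without P30 replicate 1, Atp5a1, Cox5b, Ndufa7 and Uqcrc1 were no longer called, without P30 replicate 2, Cox6a1 and Ndufa7, and without P30 replicate 3, Atp5a1, Atp5g3 and Ndufaf3.

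**Figure D1:**
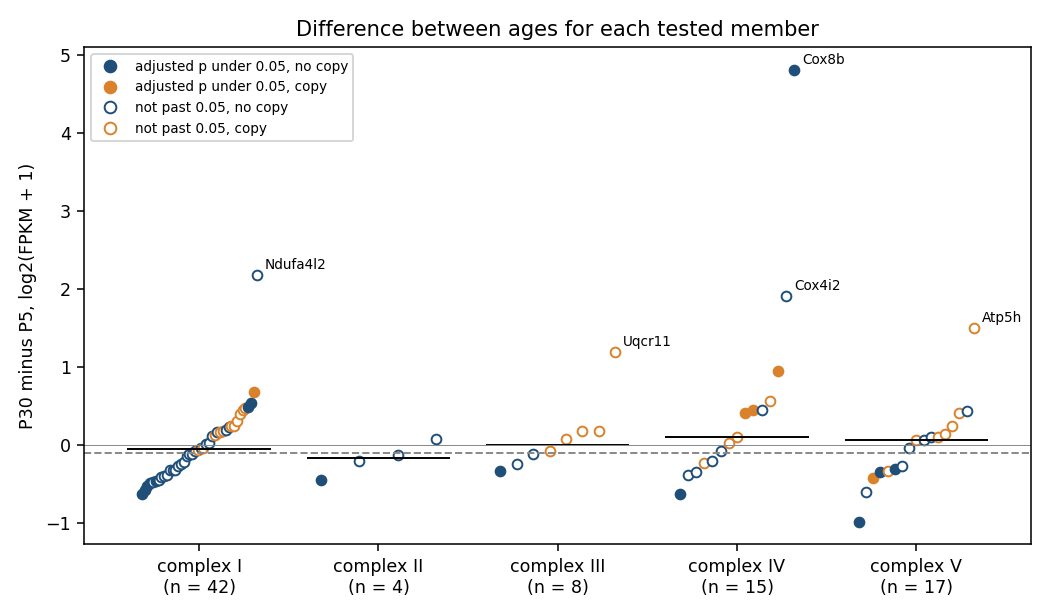
Difference between ages for each of the 86 tested members, as limma log2 fold change of FPKM + 1 (P30 minus P5, vertical axis), by complex. Filled points passed an adjusted p of 0.05, orange points have a near-identical copy of their coding sequence elsewhere in the genome, black bars are medians of each complex and the dashed line is the median of all genes tested (-0.10). Most points lie within 1 of 0, and Cox8b stands apart at the top, where its place depends on the pseudocount because its P5 values are 0.

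Complex I, which takes electrons from NADH, had 3 members that rose and 5 that fell among 42. Its 7 nuclear core subunits carry the flavin and iron-sulphur clusters. The FPKM of Ndufs7, which holds the last iron-sulphur cluster before coenzyme Q (mm9 chromosome 10, 79711866 to 79719539), was 151, 158 and 131 at P5 and 224, 215 and 201 at P30. All P30 values exceeded all P5 values (log2 difference 0.54, SE 0.11, adjusted p = 0.00806 in limma). Ndufs1, the largest subunit of the complex, went the other way, with 139, 141 and 154 FPKM at P5 and 95.8, 119 and 101 at P30 (log2 difference -0.46, SE 0.12, adjusted p = 0.0194). Of the other core subunits, 4 that did not pass the limit were Ndufv1, the flavin-binding subunit, which differed by 0.17, Ndufs8 by -0.04, Ndufs3 by -0.07 and Ndufv2 by -0.31 on the log2 scale (adjusted p from 0.102 to 0.882).

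Among the accessory subunits of complex I, Ndufa8, Ndufs4, Ndufb5 and Ndufa10 fell and Ndufa7 rose. Ndufa8 (mm9 chromosome 2, 35891846 to 35904926), the most abundant transcript of the complex, was listed at 561, 654 and 564 FPKM at P5 and 391, 352 and 410 at P30. The groups were far apart (log2 difference -0.62, SE 0.11, adjusted p = 0.00426). Ndufs4 (mm9 chromosome 13, 115078003 to 115178302), whose loss in mice and people causes complex I deficiency, had 149.5, 159 and 139.5 FPKM at P5 and 92.7, 106 and 102 at P30 (log2 difference -0.57, SE 0.11, adjusted p = 0.00589). Ndufb5, a subunit of the membrane arm, had 233, 240 and 233 FPKM at P5 and 186, 165 and 153 at P30. Its log2 fold change was -0.49 (SE 0.10, adjusted p = 0.00979). Ndufa10 fell from 180 ± 9.77 FPKM (SD, n = 3) to 126 ± 19.1, and Ndufa7 rose from 162 ± 20.3 to 263 ± 60.5. Neither pair of groups overlapped, although P30 replicate 3 of Ndufa7, at 196 FPKM, lay near the highest P5 value of 184. Of the 4 assembly factors, Ndufaf3 rose from 38.0 ± 4.80 to 53.5 ± 3.57 FPKM (log2 difference 0.49, SE 0.14, adjusted p = 0.0308), and Ndufaf1, Ndufaf2 and Ndufaf4 differed by -0.41, -0.44 and -0.40 without passing the limit.

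Complex II, succinate dehydrogenase, is also an enzyme of the tricarboxylic acid cycle and has no subunit in mitochondrial DNA. Sdhd, a membrane anchor, fell, with 252, 299 and 274 FPKM at P5 and 223, 211 and 170.0 at P30 (log2 difference -0.45, SE 0.13, adjusted p = 0.0299). The flavoprotein Sdha, at 302, 326 and 310.1 FPKM at P5 and 340.1, 332 and 316 at P30, had overlapping groups and a log2 difference of 0.07 (95% interval of the limma fit, -0.13 to 0.28). Sdhb, the iron-sulphur subunit, and Sdhc, the other anchor, differed by -0.13 and -0.20 and did not pass the limit.

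Complex III, the cytochrome bc1 complex, had 8 members, of which 1 passed the limit. Uqcrc1, 1 of its pair of large core proteins, fell from 331, 337 and 306 FPKM at P5 to 258 ± 15.3 (SD, n = 3) at P30, with no overlap between the ages (log2 difference -0.33, SE 0.09, adjusted p = 0.0278). Its partner Uqcrc2 had overlapping groups, at 305 ± 13.5 and 284 ± 46.6 FPKM (adjusted p = 0.509). Uqcrfs1, the Rieske iron-sulphur protein, was lower in every P30 isolation, from 242 ± 9.52 to 205 ± 22.5 FPKM, without passing the limit (adjusted p = 0.119). The widest difference of the complex was in Uqcr11, a small subunit, which had 53.5, 63.8 and 56.6 FPKM at P5 and 202, 217 and 54.6 at P30. P30 replicates 1 and 2 stood far above P5, while P30 replicate 3 lay within the P5 values, and the log2 fold change of 1.20 had an adjusted p of 0.0859.

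Complex IV, cytochrome c oxidase, had the 1 member called at the study's limits. Cox8b (mm9 chromosome 7, 148084842 to 148086345), the isoform of the smallest subunit known from heart and skeletal muscle, was listed at 0 in all P5 isolations and at 61.8, 19.0 and 16.7 FPKM in the P30 isolations (adjusted p = 0.000806 in limma). No fold is given against a group listed at 0. The call was also made in all 15 other fits, with adjusted p up to 0.00599. P30 replicate 1 held over 3 times the level of the other P30 isolations. Cox8a, the isoform of most tissues, had 476, 485 and 426 FPKM at P5 and 608, 575 and 658 at P30, and rose by 0.41 on the log2 scale (SE 0.10, adjusted p = 0.0160). Cox8b thus made up 9.22%, 3.19% and 2.48% of the summed Cox8 level in P30 replicates 1, 2 and 3.

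Markers of some other cells shared the P30 order of Cox8b, whose replicates 2 and 3 were nearly level at 19.0 and 16.7 FPKM. Pericyte, smooth muscle and fibroblast sums did not and were highest in P30 replicate 2. The sum of 10 RPE markers was 4141, 2416 and 534 FPKM in P30 replicates 1, 2 and 3, the order of Cox8b itself, and from 113 to 342 in the P5 isolations, where Cox8b was listed at 0. The 12 photoreceptor markers had the same order, at 444, 314 and 64.5 FPKM at P30 against 16.3 to 28.3 at P5. Among those that could be tested, 7 of 9 RPE markers and 5 of 8 photoreceptor markers rose. The 6 melanocyte markers summed to 986, 866 and 106 FPKM at P30 and to between 61.0 and 282 at P5. The 12 skeletal muscle markers summed to no more than 29.5 FPKM in any isolation, with myoglobin (Mb) and Tnni2 listed at 0 in all 6, and none of the 2 that could be tested passed the limit. The part of RPE or photoreceptor transcripts in the Cox8b result was not tested.

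The promoter windows of both Cox8 isoforms, of Cox6a1 and of Ndufa8 are given because Cox8b was the member called at the study's limits, Cox8a is its partner, and the other pair are called members that hold an NRF1-type motif. Each is the gene strand, from 250 bases before the RefSeq start to 30 after it (GRCm38.p6, a later build than the mm9 of the expression values, so positions cannot be set beside those above). Capitals mark matches to a motif on either strand.
Cox8a, chr19:7217587-7217866, minus strand: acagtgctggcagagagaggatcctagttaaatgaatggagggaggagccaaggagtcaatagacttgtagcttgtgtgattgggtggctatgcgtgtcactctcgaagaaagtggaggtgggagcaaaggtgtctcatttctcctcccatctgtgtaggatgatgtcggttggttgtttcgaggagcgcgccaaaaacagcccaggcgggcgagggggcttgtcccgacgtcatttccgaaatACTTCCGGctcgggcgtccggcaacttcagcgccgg
Cox8b, chr7:140900417-140900696, minus strand: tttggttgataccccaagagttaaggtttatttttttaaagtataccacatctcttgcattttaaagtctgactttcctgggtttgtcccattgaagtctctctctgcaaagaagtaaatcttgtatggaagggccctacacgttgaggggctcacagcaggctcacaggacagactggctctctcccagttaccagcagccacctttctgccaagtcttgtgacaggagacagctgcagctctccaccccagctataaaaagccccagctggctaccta
Cox6a1, chr5:115348929-115349208, minus strand: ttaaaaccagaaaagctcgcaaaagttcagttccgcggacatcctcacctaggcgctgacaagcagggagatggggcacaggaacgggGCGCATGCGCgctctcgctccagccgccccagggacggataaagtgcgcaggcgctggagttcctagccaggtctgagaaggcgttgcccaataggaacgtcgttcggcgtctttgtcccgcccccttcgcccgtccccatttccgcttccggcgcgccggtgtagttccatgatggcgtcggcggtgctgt
Ndufa8, chr2:36049309-36049588, minus strand: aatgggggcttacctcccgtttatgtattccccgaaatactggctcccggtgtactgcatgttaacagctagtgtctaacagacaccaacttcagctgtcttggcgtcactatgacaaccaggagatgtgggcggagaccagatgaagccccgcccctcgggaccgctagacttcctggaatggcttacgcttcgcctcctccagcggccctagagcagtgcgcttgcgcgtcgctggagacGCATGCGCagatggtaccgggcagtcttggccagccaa
The capitals in Cox8a are CCGGAAGT, a GABPA and ETS-type motif, read on the opposite strand, beginning 6 bases before the start. Those in Cox6a1 are a pair of overlapping matches to GCGCATGC, an NRF1-type motif, beginning 162 bases before the start. Ndufa8 holds the same NRF1-type letters on the opposite strand, beginning 8 bases before the start. Uqcrc1, also a called member, holds these letters more than 30 bases after its start, past the end of the windows given here. Cox8b held none of the motifs searched.

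RefSeq windows of 300 bases (250 before to 50 after the start) could be matched for 74 of the 90 members. GCGCATGC stood in 11 of them (14.9%), against 3.05% of all 27025 genes listed. CCGGAAGT stood in 5 (6.76%, against 4.31%), AAGGTCA, an ESRRA-type motif, in 8 (10.8%, against 5.38%) and AAGATGG, a YY1-type motif, in 12 (16.2%, against 7.28%). These are matches of letters, not sites of binding. The Cox8b window had the fewest CpG dinucleotides of the 74, at 2, where the members had a median of 19.5 and all genes a median of 7.

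Of the other complex IV subunits, Cox5b and Cox6a1 rose and Cox7a2l fell. Cox7a2l (mm9 chromosome 17, 83901259 to 83913673), which takes part in joining complexes III and IV into supercomplexes, had 686, 638 and 584 FPKM at P5 and 394, 454 and 392 at P30. These groups were well apart (log2 difference -0.62, SE 0.11, adjusted p = 0.00426). Cox6a1, the isoform outside muscle, had 597, 577 and 487 FPKM at P5 and 711, 838 and 713 at P30 (log2 difference 0.45, SE 0.12, adjusted p = 0.0226), and it supplied the whole of the summed Cox6a level. Cox5b, a matrix-side subunit, was steady at P5, at 53.6, 53.9 and 56.8 FPKM, and scattered at P30, at 118, 147 and 69.7. Its log2 fold change was 0.95 (SE 0.25, adjusted p = 0.0230). Cox7a2, the partner of Cox7a1 in most tissues, and Cox7b did not pass the limit, at -0.38 and -0.23 (adjusted p = 0.0692 and 0.351). Cox6b1 and Cox6c differed by -0.08 and 0.10, and Cox6b2, an isoform best known from testis, made up between 1.52% and 5.62% of the Cox6b level in all 6 isolations.

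**Figure D2:**
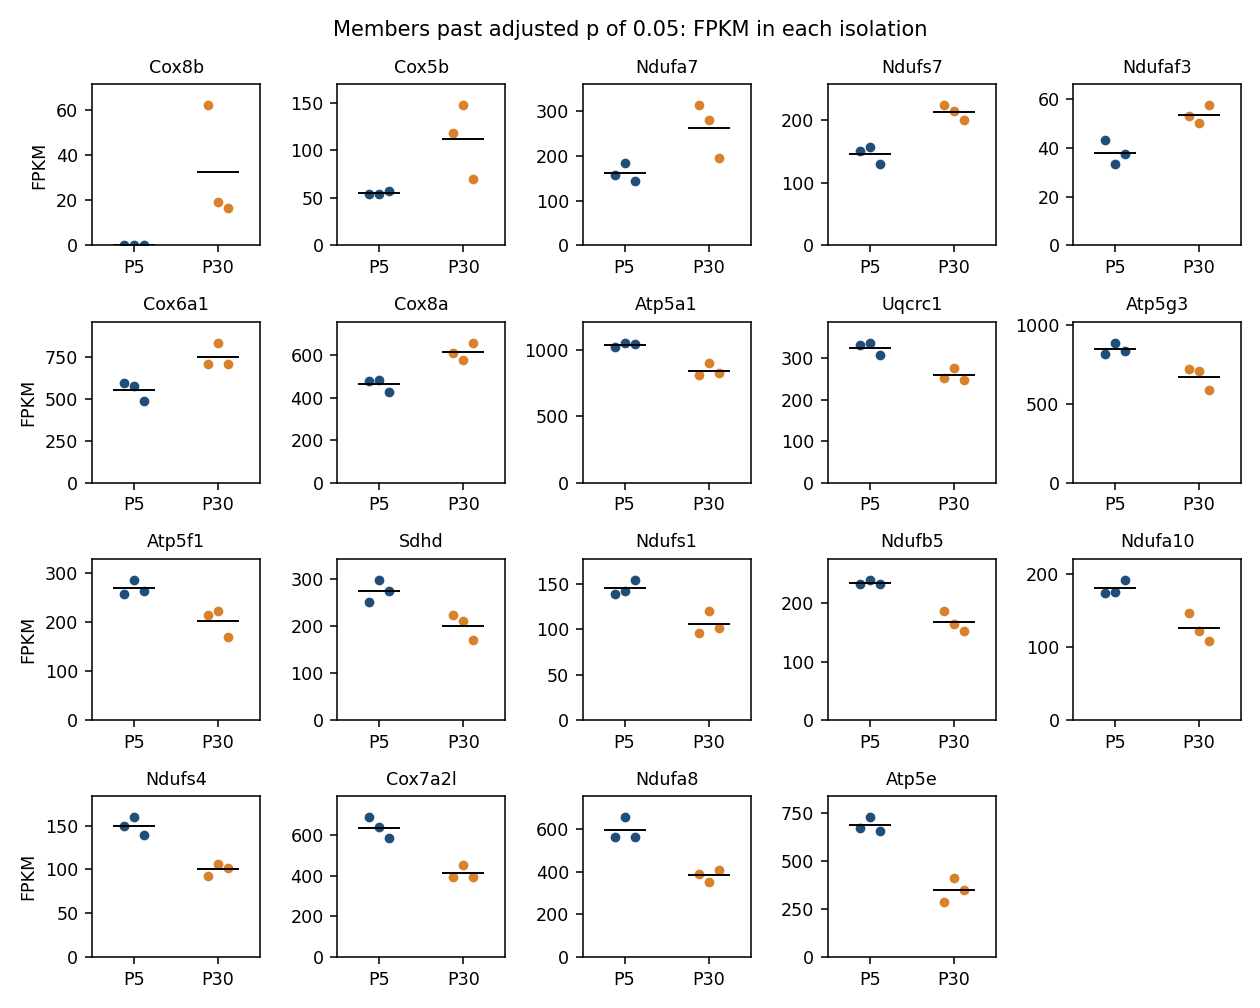
FPKM in each isolation (points) with the mean of each age (bar) for the 19 members past an adjusted p of 0.05, ordered from the largest rise to the largest fall, each panel with its own axis from 0. No panel shows overlap between the ages, and Cox8b, Cox5b and Ndufa7 have the widest P30 scatter.

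Cox4i2 and Ndufa4l2, the minor partners of Cox4i1 and Ndufa4, are isoforms known from cells that sense low oxygen. Cox4i2 had 42.3, 27.2 and 6.33 FPKM at P5 and 33.3, 135 and 102 at P30. Ndufa4l2 had 86.6, 51.0 and 11.6 FPKM at P5 and 72.5, 360.1 and 204 at P30. Their 6 isolations fell in the same order, and P30 replicate 1 lay among the P5 values for both. The log2 fold changes of 1.92 (SE 0.73) and 2.19 (SE 0.79) did not pass the limit (adjusted p = 0.0737 and 0.0636 in limma). Single isolations decided this: without P30 replicate 1 both passed (2.51, adjusted p = 0.0334, and 2.82, adjusted p = 0.0322), without P5 replicate 1 Ndufa4l2 passed (2.78, adjusted p = 0.0471), and without P5 replicate 3 the differences were 1.17 and 1.38 (adjusted p = 0.1958 and 0.1702). Cox4i2 made up between 0.571% and 3.77% of the Cox4 level at P5 and between 2.99% and 13.0% at P30. Ndufa4l2 made up between 2.50% and 17.4% of the Ndufa4 level at P5 and between 12.2% and 44.3% at P30. The main partners were steady by comparison: Cox4i1 at 1101 ± 22.4 and 961 ± 103 FPKM, and Ndufa4, now placed with complex IV rather than complex I, at 440.4 ± 25.6 and 437 ± 96.9.

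The pericyte markers followed almost the same order. The sum of their 8 genes, which include Rgs5, Pdgfrb and Notch3, was 1768, 936 and 498 FPKM for P5 replicates 1, 2 and 3 and 1959, 6715 and 4020 for the same numbers at P30, and 4 of the 8 rose. Only P5 replicate 1 and P30 replicate 1 change places between this order and that of the 2 isoforms. The part of pericyte transcripts in these values was not tested.

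**Figure D3:**
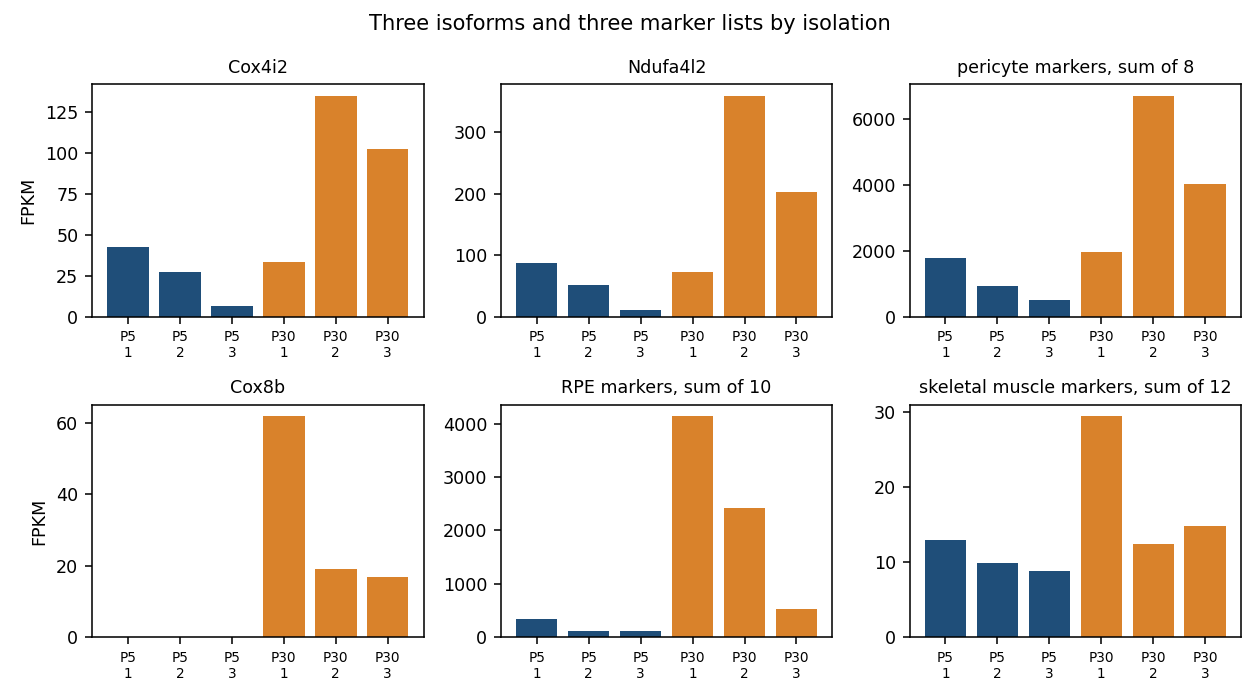
FPKM by isolation (replicate numbers on the horizontal axis, P5 in blue, P30 in orange) of Cox4i2, Ndufa4l2 and Cox8b, and the summed FPKM of 8 pericyte, 10 RPE and 12 skeletal muscle markers. Cox4i2 and Ndufa4l2 are highest in P30 replicates 2 and 3, as are the pericyte markers, while Cox8b and the RPE markers are highest in P30 replicate 1.

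Complex V, the ATP synthase, had 4 members that fell and none that rose among 17 by limma, Atp5h being the only one higher at an unadjusted p under 0.05. The share that fell, 23.5%, was near the 22.4% of all genes. Atp5e (mm9 chromosome 2, 174286573 to 174289606), the epsilon subunit of the rotor stalk, had the largest fall of all members, with 668, 726 and 657 FPKM at P5 and 287, 413 and 348 at P30. No P30 value came near the P5 values (log2 difference -0.98, SE 0.14, adjusted p = 0.00211). Atp5a1, the alpha subunit of the catalytic head, had 1023, 1054 and 1043 FPKM at P5 and 809, 901 and 823 at P30 (log2 difference -0.30, SE 0.09, adjusted p = 0.0324). Atp5b, with which it alternates in the head, was also lower in every P30 isolation, from 1409 ± 33.7 to 1169 ± 90.1 FPKM, and lay just outside the limit (log2 difference -0.27, adjusted p = 0.0598). Atp5f1, of the peripheral stalk, fell by 0.42 on the log2 scale (SE 0.13, adjusted p = 0.0330) and Atp5g3, of the membrane ring, by 0.34 (SE 0.11, adjusted p = 0.0434).

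The ring subunit is encoded by 3 genes whose mature proteins are the same. Atp5g3 supplied 88.8% ± 1.18 (SD, n = 3) of their summed FPKM at P5 and 84.5% ± 5.42 at P30. Atp5g1 had 46.8 ± 4.82 FPKM at P5 and 56.6 ± 28.1 at P30, and Atp5g2 had 60.4 ± 8.01 and 72.2 ± 35.8, differences within the spread between isolations. Atp5g1 and Atp5g2 had 4 near-identical copies each of their coding sequence elsewhere in the genome, and Atp5g3 had none. The part of the copies in these shares was not tested. The widest difference of complex V upwards was in Atp5h, subunit d of the peripheral stalk, at 38.5, 62.2 and 64.1 FPKM at P5 and 273, 228 and 57.9 at P30. As with Uqcr11, P30 replicate 3 lay among the P5 values and the limit was not passed (log2 difference 1.50, SE 0.55, adjusted p = 0.0657). Atp5k, subunit e, had the same form, at 67.0, 82.4 and 76.6 FPKM at P5 and 247, 122 and 33.5 at P30, with P30 replicate 3 below all other isolations.

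Uqcr11, Atp5h and Atp5k had a feature in common that the choice of members had not used. The coding sequence of each member was compared with the mm9 genome, and a copy was counted where at least 80% of it matched outside its own locus at 90% identity or more. Of the 90 members, 32 had at least 1 such copy: 12 in complex I, 5 in complex III, 7 in complex IV and 8 in complex V. Atp5l had 14, Atp5h 8, Cox7c and Uqcrb 5 each, and Uqcr11 and Atp5k 2 each. Not every member of this form had a copy. Atp5c1 (292, 388 and 164 FPKM at P30) and Atp5j (633, 591 and 426) had none. For both, P30 replicates 1 and 2 lay above all P5 values and P30 replicate 3 below them. Among tested genes with a coding sequence, 37.2% of members and 8.79% of all genes had a copy. The members with copies were short, with a median coding length of 337 bases against 519 for those without.

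Members with more copies had lower levels in P30 replicate 3. Its level minus the mean of P30 replicates 1 and 2, on the log2(FPKM + 1) scale, had a median of -0.10 over the 54 tested members without a copy, -0.36 over 15 with 1 copy, -0.87 over 10 with 2 to 3 and -1.43 over 7 with 4 or more. Over all genes tested, the same medians were -0.05, -0.17, -0.27 and -0.29. Cox7c, for example, had 145 and 134 FPKM in P30 replicates 1 and 2 and 51.2 in replicate 3, and Uqcrb had 207, 236 and 88.8. P30 replicates 1 and 2, in turn, exceeded the P5 mean by a median of 0.49 over members with copies and lay below it by a median of 0.18 over members without. Over all genes tested the same medians were -0.05 with copies and -0.08 without, so genes with copies at large did not share the positive median. Both of these replicates were above every P5 isolation for 22 of the 32 members with copies and for 8 of the 54 without. No such count was made over all genes. P30 replicate 3 also stood apart in markers of some other cells. Its sums were 534 FPKM for RPE, 64.5 for photoreceptor, 106 for melanocyte and 442 for 7 erythroid markers. P30 replicates 1 and 2 had 4141 and 2416, 444 and 314, 986 and 866, and 1385 and 1830. Its smooth muscle sum was also the lowest at P30, at 828 FPKM against 1036 and 1696. For pericyte, fibroblast, leukocyte and endothelial markers its sums lay between those of P30 replicates 1 and 2. The part of any of these cells in the pattern was not tested.

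**Figure D4:**
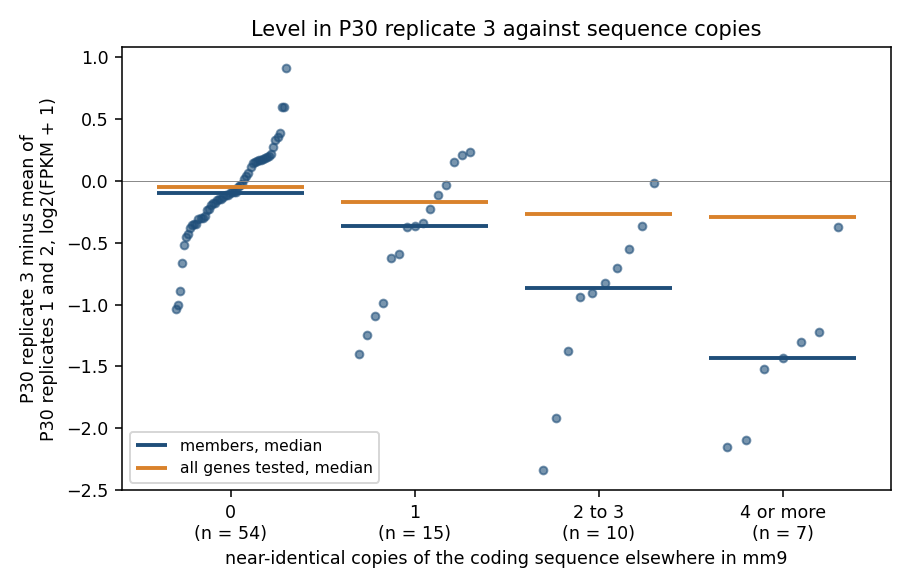
Level in P30 replicate 3 minus the mean of P30 replicates 1 and 2, in log2(FPKM + 1), for each tested member (points), by the number of near-identical copies of its coding sequence elsewhere in mm9. Blue bars are medians of the members and orange bars medians of all genes tested, and the blue medians run from -0.10 without a copy to -1.43 with 4 or more.

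Split by copies, the members differed in direction. Of the 54 tested members without a copy, 38 had a negative difference (70.4%, against 56.4% of all genes) and 16 a positive one. Of these members 11 fell (20.4%, against 22.4%) and 3 rose (5.56%, against 16.1%), and the median was -0.21, against -0.10 over all genes tested and over those without a copy. Of the 32 with a copy, 26 had a positive difference and 18.8% a negative one, against 56.4% of all genes. Of these members 4 rose (Cox5b, Ndufa7, Cox6a1 and Cox8a, 12.5%, against 16.1%) and 1 fell (Atp5f1, 3.12%, against 22.4%). Their median was 0.18, where all genes with a copy had -0.14. Without a copy, the medians were -0.23 for complex I, -0.17 for II, -0.24 for III, -0.14 for IV and -0.27 for V, and with a copy they were 0.24 for I, 0.17 for III, 0.41 for IV and 0.13 for V. Without P30 replicate 3, 19 members rose in place of 7 (22.1%, against 18.0% of all genes). Cox5b, Cox7c, Uqcr11 and Atp5h then joined Cox8b past the study's limits. How the authors' counting treated fragments that match several places is not given in the sources used here, and the part of the copies in these results was not tested.

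Summed over subunits, the members without a copy took 15440, 16330 and 15280 FPKM at P5 and 13890, 14380 and 12880 at P30, and those with a copy 5138, 5584 and 5136 at P5 and 7198, 6982 and 4838 at P30. The former did not overlap between ages and the latter did. Over all 83 subunits the sums overlapped between ages, at 20580, 21920 and 20420 FPKM at P5 and 21080, 21360 and 17720 at P30. As a share of all FPKM, the 83 subunits together made up 1.40% to 1.48% at P5 and 1.13% to 1.29% at P30. The total they are a share of was larger at P30, at 1571227 to 1734639 FPKM per isolation against 1432700 to 1485332 at P5.

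**Figure D5:**
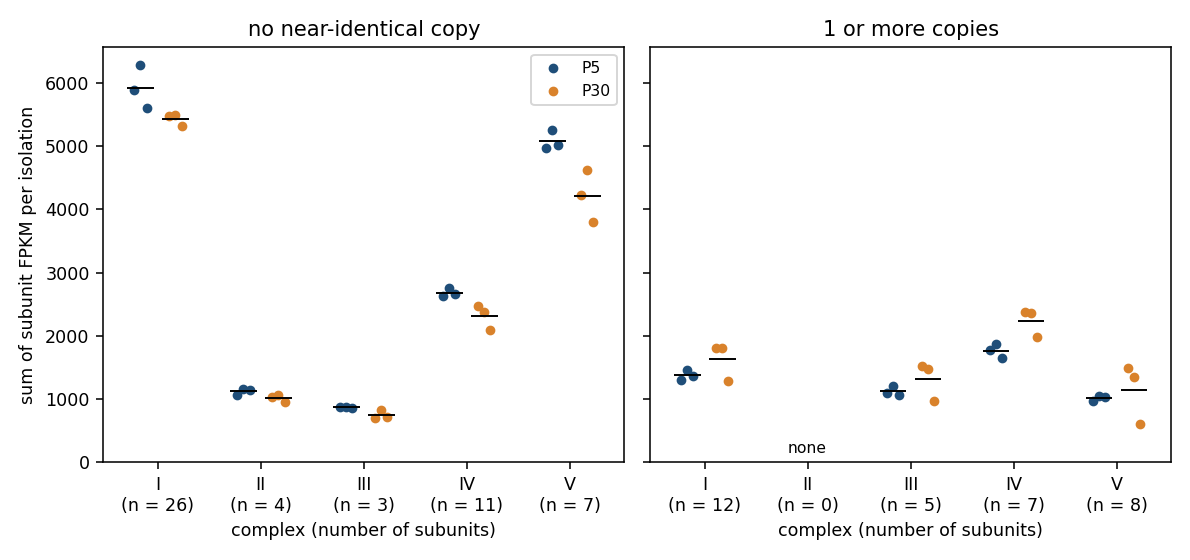
Summed FPKM of the subunits of each complex in each isolation (points) with the mean of each age (bar), for subunits without (left) and with (right) a near-identical copy. On the left the P30 means lie below the P5 means in all 5 complexes, and on the right above them in all 4 complexes that have such subunits. On the right, P30 replicate 3 nevertheless lies below every P5 isolation in complexes I, III and V.

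Genes that act with the complexes were examined by list. The 26 tested assembly factors outside the 90 had 3 that rose and 2 that fell (19.2% in all, against 38.5% of all genes), with a median log2 difference of -0.19. The copper chaperone Cox17 rose from 139 ± 3.42 to 225 ± 24.7 FPKM (adjusted p = 0.00315), and Sco2 and Surf1, which also serve complex IV, rose by 0.68 each, whereas Sco1 fell by 0.67. Of 22 electron carriers, coenzyme Q enzymes and nucleotide exchangers, 4 fell and 1 rose (22.7% in all). Atpif1, the inhibitor of the ATP synthase, fell from 481, 578 and 539 FPKM to 323, 246 and 208 (log2 difference -1.06, SE 0.17, adjusted p = 0.00308) and has 1 near-identical copy, and the outer membrane channel Vdac1 fell by 0.62. Of 21 tricarboxylic acid cycle and pyruvate dehydrogenase genes, 7 fell and 1 rose (38.1% in all, near the 38.5% of all genes), with a median of -0.24. Idh2, the mitochondrial NADP-dependent isocitrate dehydrogenase, fell from 324 ± 16.6 to 158 ± 9.22 FPKM (adjusted p = 0.000373), and Idh3a, a subunit of the NAD-dependent enzyme, fell by 0.79.

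Among 17 tested regulators of mitochondrial biogenesis, Gabpa, Gabpb1 and Tfam fell and Polg2 rose (23.5% in all). Tfam packages mitochondrial DNA and takes part in its transcription. It had 49.0, 56.5 and 55.9 FPKM at P5 and 21.8, 33.0 and 37.0 at P30 (log2 difference -0.82, SE 0.21, adjusted p = 0.0188). Gabpa, the DNA-binding subunit of the factor that reads CCGGAAGT, fell by 0.71 and its partner Gabpb1 by 0.65, while Nrf1, at 58.1 to 61.6 FPKM in the P5 isolations and 59.5 to 68.2 in the P30 isolations, overlapped between the ages. The coactivator Ppargc1a stayed under 5 FPKM in every isolation and was not tested. Of 76 mitochondrial ribosomal protein genes, 22 fell (28.9%, against 22.4% of all genes), none rose at an adjusted p under 0.05 in limma, and the median was -0.31. Of 13 tested supercomplex and cristae genes, 3 rose and 2 fell (38.5% in all, as for all genes). The largest rise was in Higd1b, from 3.14, 0 and 0 FPKM to 26.9, 68.1 and 27.6 (adjusted p = 0.00205), highest in P30 replicate 2. Its P30 values lay in the order of the pericyte sum, with replicates 1 and 3 nearly level. The part of pericyte transcripts in this rise was not tested. Chchd10 rose from 3.90, 2.49 and 1.58 FPKM to 63.5, 32.0 and 20.9, its P30 values in the order of Cox8b, and Phb2, a prohibitin of the inner membrane, fell by 0.66 (adjusted p = 0.00182).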

How the data were processed

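RNA of sorted choroid ECs was measured in 6 samples, 3 isolations at each of 2 ages. According to the study's methods and the submitters' processing notes, reads were called with CASAVA 1.8.2, checked with FastQC and mapped on mm9 by TopHat. The authors then obtained FPKM from Cufflinks, corrected for GC content and scaled to the upper quartile. The deposited FPKM values, 1 per gene symbol and isolation, were used as they stand. Versions of TopHat and Cufflinks and the gene annotation are not given in the sources used here.

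Genes were fitted with limma 3.58.1 in R 4.3.3 (lmFit, eBayes with trend) on log2(FPKM + 1), without a block, and p-values were adjusted by Benjamini-Hochberg over the 12481 genes tested. This scale understates the change of genes with low FPKM. The fit was tested on simulated data. Coding sequences and gene positions came from the GENCODE annotation of mm9, and copies were found with blastn 2.17.0. Joins and figures were made in Python 3.11.15 (pandas 2.3.3, matplotlib 3.10.9). Promoters were those of RefSeq on GRCm38.p6.

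Members and gene lists were chosen with earlier results of these data known. Members were named by a rule: those past the study's limits, the 3 largest rises and falls and the 2 highest levels in each complex, the isoform families, complex II, the core subunits of complex I, and the largest changes of each list. Ndufb5, the Ndufaf genes, Ndufab1, Atp5c1, Atp5j, Atp5l, Cox7c, Nrf1 and Ppargc1a fall outside it and were named after their values were seen. A gene named by the rule is not reported here. Alternatives were other pseudocounts, filters, scalings and eBayes settings, a replicate block, subunits alone, each isolation left out, and, added after seeing the data, members with and without copies.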

Additional observations from a re-analysis of the deposited data

How the results depend on the processing

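The call of Cox8b at the study's limits was made in all 15 other fits. Of the 19 members past an adjusted p of 0.05, 6 passed it in the same direction in all 15 (Atp5e, Cox7a2l, Cox8b, Ndufa8, Ndufs4 and Ndufs7), and 13 lost it in at least 1. Counts of members past the study's limits higher at P30 ranged from 1 to 5 as each isolation was left out (5 without P30 replicate 3) and were 0 for members with a copy. Those higher at P5 ranged from 0 to 2 (2 without P30 replicate 2, Atp5e and Atp5s) and were 1 with quantile normalization and 1 with FPKM rescaled to an equal sum, in both of which it was Atp5e. Members that rose at an adjusted p under 0.05 ranged from 2 without P5 replicate 3 (2.33%, against 10.1% of all genes) to 19 without P30 replicate 3 (22.1%, against 18.0%). Without P5 replicate 2 they were 3 (3.45%, against 9.83%). They were 4 at an equal sum (4.65%, against 13.2%), 3 among members without a copy and 4 among those with one. Members that fell ranged from 4 without P5 replicate 2 (4.60%, against 11.5% of all genes) to 16 without P30 replicate 2 (18.6%, against 24.2%). They were 6 without P5 replicate 1 (6.98%, against 14.1%) and 5 without P5 replicate 3 (5.81%, against 12.5%). They were 7 without the trend (8.14%, against 20.6%), 27 at an equal sum (31.4%, against 36.2%) and 1 among members with a copy. The split of rises to falls, 7 to 12 as reported, was 4 to 27 at an equal sum, 10 to 9 when scaled by the median ratio and 7 to 7 without the trend. By the median ratio 11.6% of members rose and 10.5% fell, against 19.2% and 18.6% of all genes. The median of all genes tested, -0.10 as reported, was -0.27 at an equal sum.

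The median of the members, -0.03 as reported, was -0.20 at an equal sum, 0.052 by the median ratio, 0.016 over subunits alone, -0.21 without a copy, 0.18 with one, and from -0.11 to 0.056 as each isolation was left out (0.056 without P30 replicate 3). For complex I it was -0.22 at an equal sum, 0.033 by the median ratio, -0.23 without a copy and 0.24 with one, and for complex II -0.34 at an equal sum. For complex III, near 0 as reported, it was -0.092 with quantile normalization, -0.17 at an equal sum, 0.084 by the median ratio, -0.24 without a copy, 0.17 with one, and from -0.05 to 0.071 as each isolation was left out. For complex IV, 0.10 as reported, it was -0.071 at an equal sum and from -0.059 (without P30 replicate 1) to 0.256 (without P30 replicate 3) as each isolation was left out. For complex V, 0.06 as reported, it was -0.074 with quantile normalization, -0.109 at an equal sum, -0.27 without a copy, and from -0.207 (without P30 replicate 2) to 0.278 (without P30 replicate 3), with -0.029 without P5 replicate 3.

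Of the 50 named members tested, 13 changed sign in at least 1 setting, none of which had passed an adjusted p of 0.05. At an equal sum the log2 differences became -0.019 for Atp5g1, -0.06 for Atp5g2, -0.071 for Cox6c, -0.001 for Ndufv1 and -0.10 for Sdha, which was -0.03 with quantile normalization. By the median ratio they became 0.009 for Cox6b1, 0.051 for Ndufa4, 0.02 for Ndufs3, 0.046 for Ndufs8 and 0.006 for Uqcrq. As each isolation was left out they ran from -0.21 to 0.55 for Atp5g1, -0.19 to 0.61 for Atp5g2, -0.23 to 1.20 for Atp5k, -0.22 to 0.066 for Cox6b1, -0.14 to 0.56 for Cox6c, -0.18 to 0.15 for Ndufa4, -0.40 to 0.26 for Ndufs3, -0.12 to 0.005 for Ndufs8, -0.083 to 0.615 for Uqcrb, -0.017 to 0.488 for Uqcrh and -0.18 to 0.094 for Uqcrq. The cause of these changes was not tested.

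Equal replicate numbers did not mark paired samples: departures from the mean of each age correlated between them at -0.06, -0.09 and -0.03. With the replicate number as a block, 6 members rose (6.98%, against 13.7% of all genes) and 8 fell (9.30%, against 17.6%). Cox8b stayed the 1 member past the study's limits. Atp5a1, Atp5g3, Ndufaf3, Sdhd and Uqcrc1 lost their calls with the block. With 3 isolations per age and no depth, small differences between subunits could not be resolved, and levels under 5 FPKM were not tested.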
